A study of Homo sapiens with 12 samples.

Results

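The transfer RNA (tRNA) genes of human chromosome 6 were placed against maps of lamina-associated domains (LADs) in 2 states of H9, an established line of human embryonic stem cells. The members are all genes that RefSeq (GRCh38.p14, the same primary assembly as the hg38 build of the maps) classes as tRNA on chromosome 6. There are 155 of them, which is 35.0% of the 443 tRNA genes on the 22 autosomes and X, and no other chromosome holds more than 98. By position they fall into 144 genes of the histone-region cluster (gene starts between 26 and 30 Mb), 6 genes of the 58 Mb region and 5 lone genes elsewhere. Starts from 58 to 59 Mb were first set for the 58 Mb region and held 0 members, so starts from 57 to 59 Mb are used here, a choice made after the positions were seen.

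LADs are stretches of DNA that touch the lamina, the protein mesh under the nuclear envelope. They were mapped by pA-DamID, in which an antibody against lamin B1 (LMNB1) brings the Dam methylase to nearby DNA and the methylated fragments are sequenced. The series holds 12 libraries in 4 groups of 3, all of untreated H9 cells. The groups are LMNB1 and Dam-only libraries of naive cells kept in RSeT medium, and LMNB1 and Dam-only libraries of primed cells kept in mTeSR medium. Dam-only libraries, made with Dam that no antibody tethers, serve as the control for open DNA. From the labels it cannot be told if these 3 are separate cultures. The deposited data are 1 list of LAD intervals per state, without read numbers or scores, so the depth is unknown. The replicates cannot be told apart in a list, and no difference between naive and primed cells is tested. The lists hold intervals and no expression, so the state of the cells could not be set against marker genes.

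A tRNA carries 1 kind of amino acid to the ribosome and reads the codons of the messenger RNA with its anticodon. RNA polymerase III transcribes the short tRNA genes from promoter elements that lie inside the gene, the A box and the B box, which the factor TFIIIC binds. Human tRNA genes occur in many copies, and their largest assembly shares the short arm of chromosome 6 with the large histone gene cluster. A symbol such as TRA-AGC12-3 gives the amino acid by its letter (A for alanine), then the anticodon, a number for a family of genes with the same mature tRNA sequence, and the copy. LADs mostly hold genes that are silent or little transcribed.

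Few tRNA genes of chromosome 6 lay in LADs, and those that differed between the states were in LADs of primed cells only. Of the 155 members 144 lie in the histone-region cluster, where 0 were called, so the low share mostly describes that locus. The call required a LAD over 50% or more of the gene. In naive cells 2 of 155 members were called (1.29%), against a background of 28.4% of all 59098 genes. In primed cells 6 of 155 were called (3.87%), against 25.2% of all genes. On chromosome 6 itself naive LADs held 34.7% and primed LADs 32.7% of the 3387 genes, and of the 1049 protein-coding genes 25.8% and 25.9%. The members called in both states were TRQ-CTG1-1 and TRQ-TTG4-1, both for glutamine. In primed LADs only were 4 members (2.58%, against 1.99% of all genes and 2.48% of chromosome 6 genes), and 0 were in naive LADs only (against 5.27% of all genes and 4.52% of chromosome 6 genes). The primed-only share is thus near the background, and all 4 lie in 1 LAD piece. No member was cut by a LAD border: each was covered at 0% or at 100%.

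**Figure D1:**
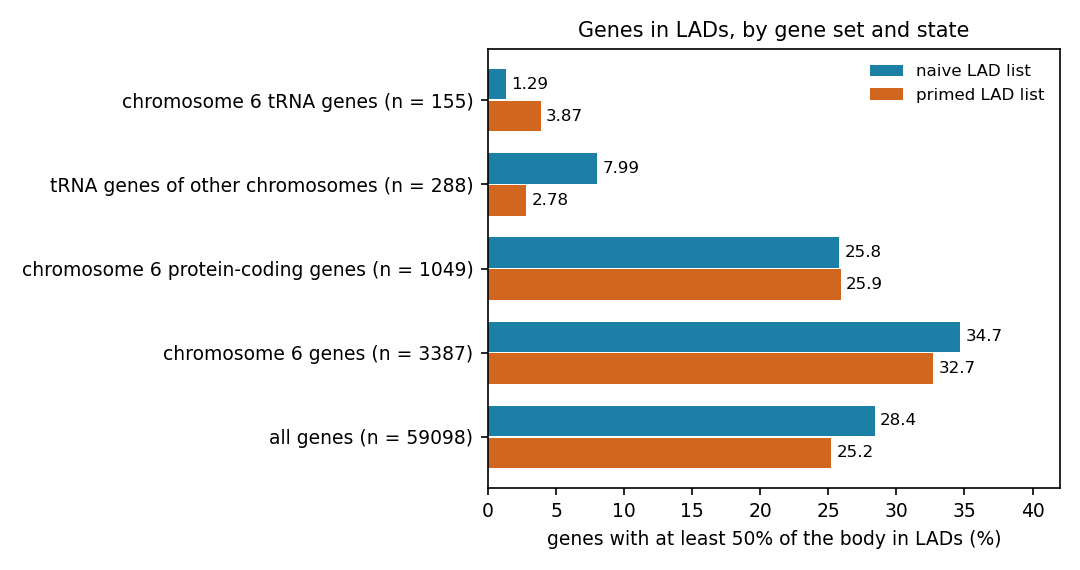
Percent of genes with at least 50% of the body in LADs (x axis) for 5 gene sets (y axis), with 1 bar for the naive and 1 for the primed list and no error bars, since each state has 1 list. Chromosome 6 tRNA genes stood at 1.29% and 3.87%, below the 34.7% and 32.7% of all genes of that chromosome. Of these 155 tRNA genes 144 belong to the histone-region cluster, where 0 were called.

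Members share windows and LAD pieces and are not independent of each other. The lists are built of 10 kb windows, and the 155 members sit in 100 of them, 39 of which hold 2 or more members and 1 of which holds 5. Of these windows 2% were called in naive and 6% in primed cells, while LADs covered 59.6% and 57% of the 170.7 Mb of chromosome 6. The histone-region cluster has 89 of the 100 windows, with 0 called in either state, so the low shares mostly describe that locus. In the 58 Mb region 0 of 6 windows were called in naive and 4 of 6 in primed cells. Among the lone genes 2 of 5 windows were called in each state. The called members lay in 2 naive LAD pieces and 3 primed ones. The naive list has 520 pieces on this chromosome and the primed list 306, with a median length of 20 kb in each.

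All 144 genes of the histone-region cluster lay outside LADs in both states. The cluster runs from TRX-CAT1-2 (chromosome 6, 26286526 to 26286597) to TRL-AAG3-1 (28989002 to 28989083), a span of 2.70 Mb with 0 LAD pieces of either list. Its members are 71 to 108 bases long and a median of 6.24 kb apart. The LAD-free stretch that holds the whole cluster ran from 25910001 to 30100000 in naive cells (4.19 Mb) and from 26230001 to 29150000 in primed cells (2.92 Mb). These ranked as the fourth longest of the 519 gaps between LADs on chromosome 6 in naive and the eighth longest of 305 in primed cells. The naive stretch held 445 genes, 114 of them protein-coding, and the primed stretch 320 and 66. The cluster is therefore not set apart from its neighbours: of the 291 genes other than tRNA genes that start between 26 and 30 Mb, none was in a naive LAD and 1 was in a primed LAD.

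That gene was H3C6 (26224178 to 26227473), which encodes a copy of histone H3. Its coverage was 0% in naive and 100% in primed cells, by the 10 kb piece from 26220001 to 26230000. It was the only one of the 53 histone genes of the region in a LAD of either list. The other primed piece of the region was also 10 kb, from 29150001 to 29160000, and held no annotated gene. The primed stretch is shorter because of these 2 windows alone.

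**Figure D2:**
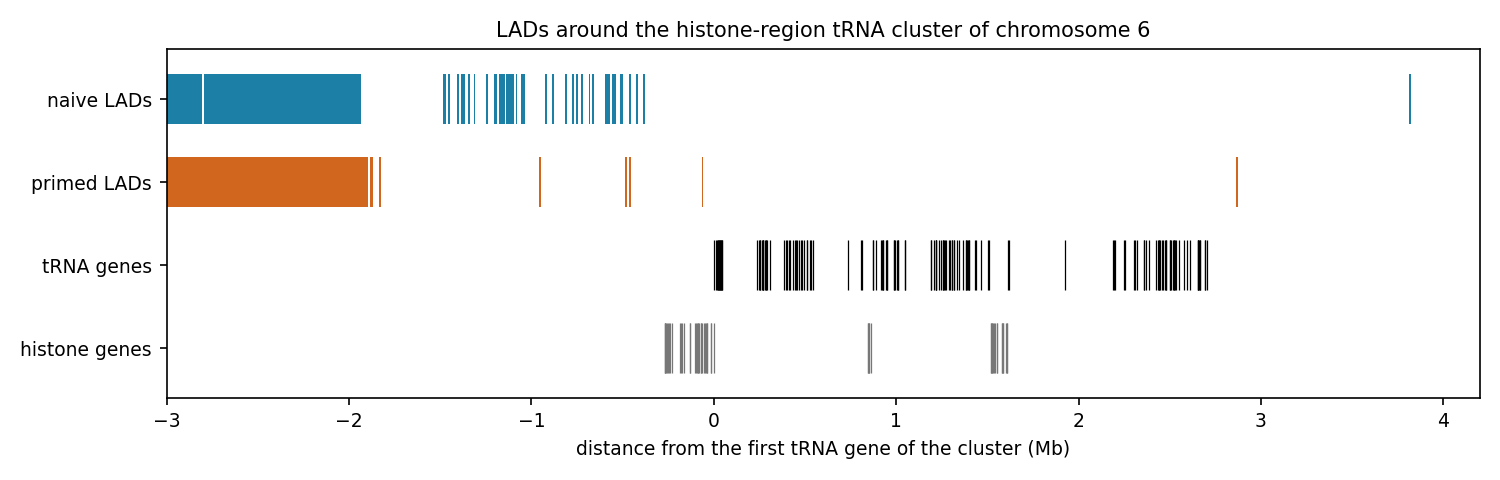
Naive and primed LADs (coloured blocks), tRNA genes and histone genes (vertical lines, at gene starts) by distance in Mb from the first tRNA gene of the histone-region cluster, drawn to scale. The 144 tRNA genes fill 2.70 Mb with no LAD of either state, and small naive pieces crowd the stretch just before it.

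The 2 sides of the cluster were unlike each other. In the 1 Mb before the cluster, naive LADs covered 18.0% in 14 pieces, 11 of them single windows, and primed LADs 4% in 4 single windows, with 10 kb in common. From 2000 to 2750 kb before it both lists covered 100%. In the 1 Mb after the cluster the naive list had 0 pieces and the primed list 1. In the 2 Mb after it each list covered 0.5%.

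Each of the 144 genes was closer to a primed than to a naive LAD. This had to be so, since the primed LAD-free stretch around the cluster lies inside the naive one. The 144 genes and their distances therefore stand for 1 difference between the lists. The distance to the nearest naive LAD ran from 376.5 kb (TRX-CAT1-2, an initiator methionine tRNA gene) to 1993 kb (TRG-GCC2-3, for glycine), with a median of 1305 kb. To the nearest primed LAD it ran from 56.5 kb (again TRX-CAT1-2) to 1458 kb (TRI-AAT2-1, for isoleucine), with a median of 539 kb. More than 1 Mb away were 100 genes in naive and 46 in primed cells. This contrast rests on small pieces, since without LADs under 50 kb the medians were 3176 kb in naive and 3136 kb in primed cells. Its direction turns when LADs less than 50 kb apart are joined and those under 100 kb are then left out: the medians were 1616 kb in naive and 3066 kb in primed cells, and 0 of the 144 genes were closer to a primed LAD.

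Gaps of 100 kb or more divide the cluster into 7 groups of genes, a division made after the positions were seen. All 7 are measured to the edges of the same LAD-free stretches, so their distances follow from position and are not separate observations. The first, 13 genes from 26286526 to 26331515, lay closest to LADs, with median distances of 403 kb in naive and 83.1 kb in primed cells. It holds 3 initiator methionine, 3 arginine and 3 serine genes. The second, 31 genes up to 26828299, is rich in alanine (12) and elongator methionine (5) genes, with medians of 777 and 457 kb. The third, 21 genes from 27020346 to 27335062, has 5 isoleucine and 4 valine genes and medians of 1321 and 1001 kb. The fourth, 33 genes up to 27795932, has 9 serine and 4 glutamine genes and was the farthest from primed LADs of the groups with more than 2 genes (medians 1683 and 1359 kb). A pair from 27902493 to 27902978, TRX-CAT1-7 and TRG-GCC2-3, was farthest from naive LADs (1993 kb, against 1247 kb in primed cells). TRS-GCT5-1, a serine gene alone at 28213037, stood 1887 and 937 kb away. The last group, 43 genes from 28474552 to 28989083, has 15 alanine and 6 phenylalanine genes. Its medians were 1336 kb in naive and 386 kb in primed cells.

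**Figure D3:**
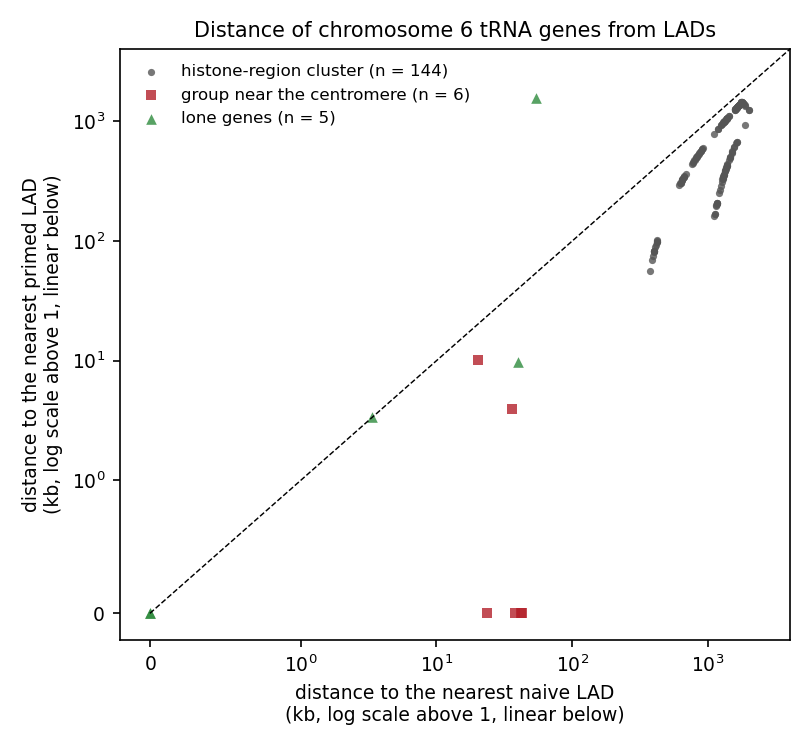
Distance in kb from each tRNA gene of chromosome 6 to the nearest naive (x axis) and primed LAD (y axis), on log axes that turn linear below 1 kb, with the dashed line at equal distance and 0 for genes inside a LAD. All 144 cluster genes and the 6 genes of the 58 Mb region (labelled as the group near the centromere) lie below the line, and 1 lone gene, TRA-CGC5-1, lies above it.

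The 58 Mb region held the only positions that differed between the states. Its 6 genes lie within 56.3 kb near the centromere of chromosome 6, from 57800211 to 57856473, each in a window of its own. In naive cells all 6 were outside LADs. In primed cells 4 were covered at 100%, all by 1 LAD piece of 40 kb from 57820001 to 57860000. These were TRNAI-AAU (57822973 to 57823046), an isoleucine gene, TRA-AGC13-2 (57838350 to 57838422) and TRA-AGC12-3 (57856401 to 57856473), alanine genes, and TRM-CAT7-1 (57842214 to 57842286), for elongator methionine. With 1 piece behind them they stand for 1 difference, not 4.

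The other 2 genes of the group were outside LADs in both states but closer to primed ones. TRI-AAT1-1 (57800211 to 57800284), for isoleucine, lay 20.2 kb from a naive and 10.2 kb from a primed LAD. TRA-AGC24-1 (57815974 to 57816046), for alanine, lay 36.0 kb from a naive LAD and only 3.95 kb from the 40 kb primed piece. The 4 called genes were 43.0 kb (TRNAI-AAU), 41.6 kb (TRA-AGC13-2), 37.7 kb (TRM-CAT7-1) and 23.5 kb (TRA-AGC12-3) from the nearest naive LAD. All 6 genes overlap annotated long noncoding RNA genes. LOC105375101 (57823013 to 57846272), which overlaps TRNAI-AAU, TRA-AGC13-2 and TRM-CAT7-1, had 0% of its body in naive and 100% in primed LADs. LOC101927268, over TRA-AGC12-3, had 0% and 38.0%.

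**Figure D4:**
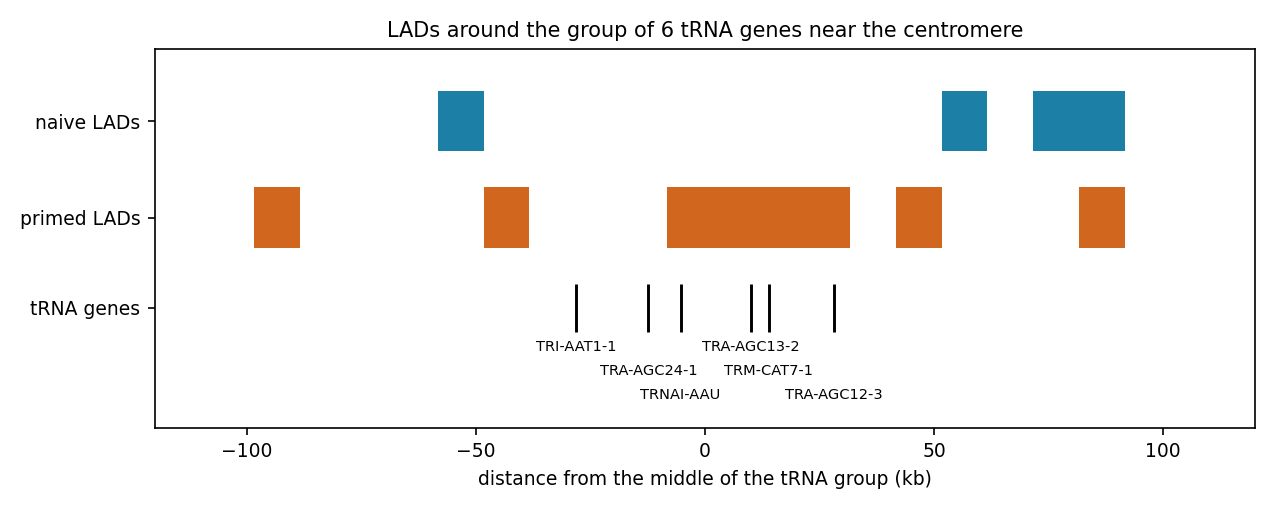
Naive and primed LADs (blocks) and the 6 tRNA genes of the 58 Mb region (lines) by distance in kb from the middle of the group, drawn to scale. The 40 kb primed piece takes in 4 genes, while the nearest naive pieces lie 100 kb apart on either side of all 6.

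The LADs of this region were small in both lists and hardly overlapped. Between 57 and 58 Mb the primed list had 10 pieces, 8 of them single windows, covering 13.0%, and the naive list 3 pieces covering 4%, with 10 kb in common. No primed piece there was longer than 40 kb, and 109 of the 306 primed pieces on chromosome 6 (35.6%) were at least that long. Over the 170 bins of 1 Mb on the chromosome, the primed excess here, 9 percentage points, was exceeded in 11, and the median was 0. In the next 1 Mb, which reaches the centromere, the primed list had 12 pieces covering 20% (1 of them runs across 58 Mb and is counted on both sides) and the naive list 0. The primed-only call ends when LADs under 50 kb are left out (0 of 6 in each state). It also ends when LADs 100 kb apart or less are joined, which puts 6 of 6 in each state, because the naive gap over the group is exactly 100 kb.

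The 5 lone genes were called alike in both states. Under each way of joining nearby LADs, however, 3 were in naive and 4 in primed LADs, with 1 in primed LADs only. TRQ-CTG1-1 (18836171 to 18836242) lay deep in a LAD, of 1390 kb in naive (18290001 to 19680000) and 1860 kb in primed cells (18330001 to 20190000). TRQ-TTG4-1 (145182723 to 145182794) lay in a naive LAD of 2690 kb and a primed LAD of 4060 kb. For each of these genes the 100 kb on either side were covered at 100% in both lists. The nearest protein-coding genes, RNF144B and EPM2A, lie 367 and 201 kb away and were covered at 100% in both lists.

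TRL-TAA1-1 stood close to a LAD border in both states, and TRE-CTC1-7 in primed cells. TRL-TAA1-1 (144216547 to 144216629), for leucine, was 3.37 kb from a LAD in both states. That LAD was a piece of 40 kb in naive and of 4060 kb in primed cells, the same primed LAD that holds TRQ-TTG4-1. Within 100 kb of TRL-TAA1-1 LADs covered 80.0% in naive and 95.0% in primed cells, so it sat in a narrow opening. TRE-CTC1-7 (125780247 to 125780318), for glutamate, lies 0.797 kb from NCOA7, a nuclear receptor coactivator gene covered at 74.2% and 94.1%. It was 39.7 kb from the nearest naive LAD and 9.68 kb from the nearest primed LAD, which is 5080 kb long. Naive LADs took up 30.1% and primed LADs 55.0% of its 100 kb flanks.

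TRA-CGC5-1 (185743 to 185814), an alanine gene near the end of the short arm, was the only member closer to a naive LAD. Its nearest naive LAD was a single window 54.2 kb away, and its nearest primed LAD lay 1554 kb away. It overlaps 2 long noncoding RNA genes, LIRIL2R and LINC03066.

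The cluster held genes of every amino acid group found on the chromosome. The 155 members serve 19 of the 22 amino acid groups of the annotation, with elongator and initiator methionine counted apart, all 19 of them in the cluster. Alanine is the most frequent, with 31 of its 38 genes on chromosome 6 (81.6%), followed by serine (17 of 26) and isoleucine (15 of 23). Initiator methionine genes, needed for the start of every protein, numbered 6 of 8 on this chromosome, and all 6 were in the cluster and outside LADs. Asparagine, cysteine and selenocysteine have no gene here. The primed-only genes belong to the 3 kinds with the most members on chromosome 6, by amino acid and anticodon. The 58 Mb region holds genes of these 3 kinds only, and its 4 called genes share 1 LAD piece. No cluster gene of any kind was in a LAD, so the counts that follow repeat the difference between the regions. Of alanine genes with the anticodon AGC, 19 are in the cluster (0 in LADs) and 3 in the 58 Mb region (2 in primed LADs). Of isoleucine genes with AAT, the cluster has 10 (0 in LADs) and the 58 Mb region 2 (1 in primed LADs). Of elongator methionine genes, all with CAT, the cluster has 7 (0 in LADs) and the 58 Mb region 1, which was in a primed LAD.

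**Figure D5:**
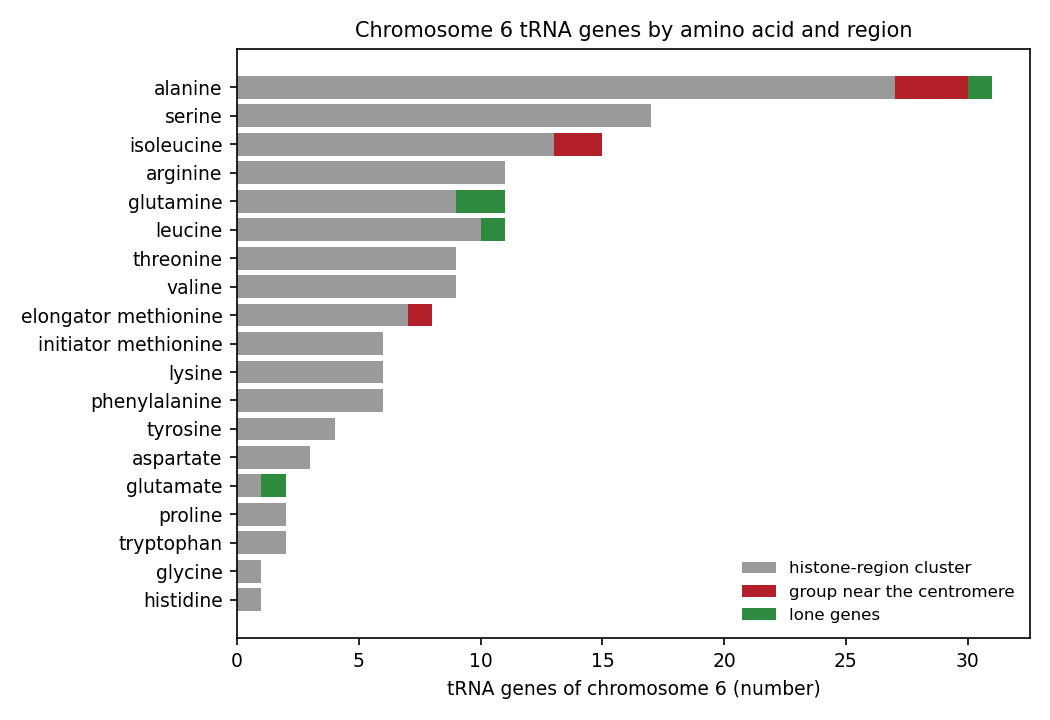
Number of chromosome 6 tRNA genes (x axis) for each amino acid (y axis), split into the histone-region cluster, the 58 Mb region (labelled as the group near the centromere) and the lone genes. Alanine leads with 31 genes, and the 58 Mb region holds alanine, isoleucine and elongator methionine genes only.

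Genes of the same family could lie on both sides of a LAD border. The alanine gene TRA-AGC12-1 (26682487 to 26682559) of the cluster was outside LADs in both states, and its fellow TRA-AGC12-3 of the 58 Mb region was in a primed LAD. Of the 5 TRQ-CTG1 genes, TRQ-CTG1-1 was in LADs of both states, while TRQ-CTG1-2 (27519529) and TRQ-CTG1-3 (28941601) of the cluster and the copies on chromosomes 15 and 17 were covered at 0%. Among 32 families with 2 or more genes and a chromosome 6 member, 7 had genes both inside and outside naive LADs and 5 both inside and outside primed LADs. Of the naive splits only TRQ-CTG1 had its LAD gene on chromosome 6, and of the primed splits only TRQ-CTG1 and TRA-AGC12. The naive splits of TRD-GTC2, TRE-CTC1 and TRL-CAG1 all come from 1 LAD piece of 20 kb on chromosome 1. How the submitters treated reads that fit several copies is not stated in the sources used here. The calls cover 10 kb windows, of which a tRNA gene is a small part.

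The tRNA genes of the other chromosomes were also mostly outside LADs, and their excess of naive calls came mostly from 1 LAD piece. Naive LADs held 23 (7.99%) and primed LADs 8 (2.78%) of 288 such genes. In naive LADs only were 19 (6.6%, against 5.27% of all genes) and in primed LADs only 4 (1.39%, against 1.99%). The naive count rests on 14 neighbouring genes in a 20 kb naive piece on chromosome 1 (161440001 to 161460000). Without these 14, 9 of 274 (3.28%) were in naive LADs and 5 in naive LADs only, close to the 8 and 4 of the primed list. The difference between chromosome 6 and the others was not tested.

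Of 73 genes listed for tRNA transcription, processing and charging, 7 were in naive LADs, and the same 7 were in primed LADs, against 28.4% and 25.2% of all genes. The match between the states depends on the call: without LADs under 50 kb, 2 genes were in primed LADs only and 1 in naive LADs only, and with 100% of the body required 1 and 2 were. None of the 13 RNA polymerase III subunits was among them. Of the 13 transcription factors and regulators, GTF3C3, a TFIIIC subunit, was covered at 100% and 73.6% (naive, then primed). Of 27 processing and modification genes 5 were called. These were TRNT1, which adds the CCA end (100% in both), RPP30 of ribonuclease P (78.1% and 72.7%), TSEN15 of the splicing endonuclease (100% and 60.1%), the methyltransferase gene TRDMT1 (68.9% and 81.9%) and ADAT2 of the wobble adenosine deaminase (61.6% and 100%). ADAT2 is the one of these on chromosome 6, from 143422832 to 143450695. Of 20 aminoacyl-tRNA synthetase genes, EPRS1 was called, at 91.7% in both.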

How the data were processed

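pA-DamID libraries of H9 cells were made with an LMNB1 antibody and with Dam alone, in naive and primed cells (3 libraries per group). The authors deposited 1 LAD list per state as 0-based start and end positions, a unit of another kind than counts, with 3 columns and no header. BWA, SAMtools 1.10, SICER and hg38 are named, per the submitters' processing notes. Steps, thresholds and the pooling of libraries are not stated in those notes or the labels.

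Genes were placed by RefSeq's GRCh38.p14 annotation, and coordinates are 1-based. The 22 mitochondrial tRNA genes were left out. Coverage, LAD pieces and edge-to-edge distances were computed with Python 3.11.15, numpy 2.4.6 and pandas 2.3.3. A simulated LAD list was made from the primed list by switching some windows that hold tRNA genes. Of the 443 tRNA genes, the 80 in switched windows were recovered and 0 others were called. This checks the interval arithmetic only. No test was run, since each state has 1 list. Every member in LADs was to be named, and, of those in neither list, the nearest to and farthest from a LAD in each region. The members, the lists and this rule were chosen with earlier results of these data known. Alternatives joined LADs, left out short ones, or changed the share of the gene to be covered. The series held 0 other columns. The promoter table used here matched 0 members, so no sequence is shown.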

Additional observations from a re-analysis of the deposited data

How the results depend on the processing

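No paired analysis was possible because each state has 1 list that does not keep its replicates apart, so no library was left out either. Over 31 values under the alternatives, 168 of 250 comparisons stayed within 1.5 times the main value, 80 moved further and 2 reversed. Both reversals were differences in median distance to a LAD between the states. The 168 include counts of 0 that stayed 0. They also include member counts that could not change, since no member is cut by a LAD border and the share required makes no difference. No cluster gene entered a LAD under any alternative tried, but none could have. The cluster lies in LAD-free stretches of 4.19 Mb (naive) and 2.92 Mb (primed), and the joins closed gaps of 100 kb at most. Leaving out LADs can only remove calls, and widening a gene by 5 kb does not reach a LAD 56.5 kb away. The windows called are the limit: 1 piece of 40 kb carries the calls at 58 Mb, and the depth behind them is unknown.

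When gaps below 50 kb were closed, 10 members were in primed LADs, 7 of them in primed only, and the excess over naive was 7. This took in all 6 genes at 58 Mb and 4 lone genes. Primed coverage of the 58 Mb group became 100% and of 57 to 58 Mb 27.0%, and 13 tRNA genes of other chromosomes were in primed LADs. When gaps below 100 kb were closed, these values were 10, 7, 7, 4, 100%, 45.0% and 16. When gaps of 100 kb or less were closed, an alternative added after seeing the data, 9 members were in naive and 10 in primed LADs (1 in primed only, excess 1). The 58 Mb group then had 6 naive genes, at a median distance of 0 kb and with coverage of 100% in both lists, so that the distances differed by 0 kb and 0 genes were closer to a primed LAD, and 57 to 58 Mb stood at 15.0% in naive and 45.0% in primed. There were 4 lone genes in primed LADs and 16 tRNA genes of other chromosomes.

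Without LADs under 50 kb, 2 members were in primed LADs, 0 in primed only and 0 at 58 Mb, and the excess was 0. The primed histone count was 0, 4 pathway genes were in naive LADs, and tRNA genes of other chromosomes numbered 8 in naive and 5 in primed LADs. Coverage of the 58 Mb group in primed, and of 57 to 58 Mb in both lists, was 0%. Median distances became 3176 kb (naive) and 3136 kb (primed) in the cluster (primed minus naive -40 kb, against -766 kb with all LADs, with all 144 genes still closer to a primed LAD) and 1381 kb in both lists at 58 Mb (a difference of 0 kb, with 0 genes closer to a primed LAD). Of the pathway genes 2 were then in primed only and 1 in naive only. Without LADs under 100 kb the counts were the same, except 4 pathway genes in each list, 1 of them in that list only, and 7 and 5 tRNA genes elsewhere. The cluster distances again differed by -40 kb. The 58 Mb distances were 1381 kb in naive and 1481 kb in primed, a difference of 100 kb in the other direction, with 0 genes closer to a primed LAD.

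With LADs joined below 50 kb and then those under 100 kb left out, 10 members were in primed LADs, 7 in primed only (excess 7), with 4 lone genes. The primed histone count was 0, and 14 tRNA genes elsewhere were in naive LADs. Coverage was 100% of the 58 Mb group in primed, and 0% (naive) and 24.0% (primed) of 57 to 58 Mb. Median distances in the cluster were 1616 kb in naive and 3066 kb in primed, so the difference reversed to 1450.0 kb and 0 of its genes were closer to a primed LAD. At 58 Mb they were 1381 kb in naive and 0 kb in primed (difference -1381 kb). With 100% of the gene body required, naive LADs held 3 and primed LADs 2 pathway genes, 2 in naive only and 1 in primed only. Under any overlap and under each way of joining LADs 1 pathway gene was in naive LADs only. With the bounds first set for the 58 Mb region (58 to 59 Mb), 0 of its genes were in primed LADs, as it then has no member. Any overlap, a body widened by 5 kb and windows in place of genes moved no count of members by over 1.5 times.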

Other observations

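Of the 8 tRNA genes outside chromosome 6 in primed LADs, 4 were in primed LADs only. These were TRN-GTT2-7 and TRQ-CTG3-2 on chromosome 1, TRR-ACG2-1 on chromosome 3 and TRF-GAA1-5 on chromosome 13. TRR-ACG2-1 and TRF-GAA1-5 have fellows of the same family in the chromosome 6 cluster, which were outside LADs in both states. So were all 144 genes of the cluster, and the fellows named here are therefore not separate observations. On the naive side, TRS-AGA2-5 on chromosome 8 and TRH-GTG1-6 on chromosome 9 had 100% of the gene in naive and 0% in primed LADs, and their fellows in the cluster at 0% in both. The 14 naive-only genes of chromosome 1 include TRD-GTC2, TRE-CTC1 and TRL-CAG1 copies, whose fellows in the cluster were likewise covered at 0%.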
